A study of Mus musculus with 4 samples.

Results

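The genes described here encode the vacuolar proton pump and the lysosomal machinery that senses nutrients and signals to the kinase mTOR. They were taken by symbol from a list of 45 genes, and 44 of the 45 had a probe set of their own among the 19938 genes measured. Atp6v0c, the proteolipid ring subunit of the pump, was the member without such a probe set and is not analysed here. The RNA came from NIH3T3 mouse fibroblasts, a single stable clone, p19, that carries the integrated constructs pBI-EGFP-FLAG-mCtcfl and pTA-N in every sample. Ctcfl encodes CTCFL, also called BORIS, a germ-line relative of the insulator protein CTCF, and the Tet-Off construct is silenced by doxycycline. The 2 Ctcfl samples had been kept without doxycycline for 48 h, and the 2 control samples had 2 µg/ml of the drug in their medium. Removal of the drug, induction of Ctcfl and any other product of the construct therefore always coincided, and their effects cannot be told apart. The name of the construct also lists EGFP and a FLAG tag. Each sample was hybridised to 1 Affymetrix array.

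The vacuolar ATPase pumps protons into lysosomes and endosomes. Its V1 sector hydrolyses ATP in the cytosol and turns a rotor that drives protons through the V0 sector in the membrane. When amino acids are plentiful, the pump and the Ragulator scaffold activate the Rag GTPases, which bring mTORC1 to the lysosomal surface, where Rheb switches it on. GATOR1 and the TSC complex restrain this step, GATOR2 relieves GATOR1, and folliculin acts on RagC and RagD. Active mTORC1 keeps the transcription factors TFEB and TFE3 in the cytoplasm. When it is inactive they enter the nucleus and bind E-box letters, called CLEAR elements, in the promoters of lysosomal genes, pump subunits among them.

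The deposited values are log2 expression values made by RMA, so a difference of 1 is a doubling, and levels of different genes cannot be ranked against each other. Ctcfl itself read 10.37 and 10.35 on the Ctcfl arrays, against 7.77 and 7.71 on the control arrays. It rose by 2.62 (SE 0.08, adjusted p = 5.38e-04 by limma), as the labels say. Over the 19938 genes the Pearson correlation was 0.996 between the Ctcfl arrays and 0.997 between the control arrays. It was 0.995 for every pair across the groups. The 8 fibroblast markers had values of 7.48 to 12.18 over the 4 arrays. The 7 measured markers of blood, endothelial and epithelial cells had values of 3.82 to 5.40, and without detection calls neither range shows which genes were expressed. The summed values of these 7 were 30.94 and 30.80 on the Ctcfl arrays, against 30.57 and 31.00 on the control arrays. The summed fibroblast markers were 81.97 and 81.68 on the Ctcfl arrays, against 83.05 and 83.11 on the control arrays. Of these 8 markers, 5 were lower and 1 higher without overlap, where 20.6% of all genes were lower and 20.6% higher. The part of these shifts in the results was not tested. Fewer cells of a kind and less RNA per cell cannot be told apart in such samples. Nothing in the labels tells separate cultures from repeats of a single culture, so p-values reflect no more than array-to-array spread, possibly technical.

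The promoters shown here belong to the 4 members with the smallest unadjusted p that have an entry in the promoter table. They are shown because the results turn on these genes. The sequences are from RefSeq (GRCm38.p6) and run from 250 bases before to 50 bases after a start site, on the strand of the gene. Capitals mark the CLEAR letters TCACGTGA and the CTCF core, read on either strand. The core was searched as CC, any 3 bases, AG, any 2 bases and GGC. Atp6v1a lies on the minus strand at chr16:44139210-44139509 and Atp6v1d on the minus strand at chr12:78861589-78861888. Tfe3 and Tfeb lie on the plus strand, and the most upstream entries are given, at chrX:7762411-7762710 for Tfe3 and chr17:47736787-47737086 for Tfeb.
Atp6v1a: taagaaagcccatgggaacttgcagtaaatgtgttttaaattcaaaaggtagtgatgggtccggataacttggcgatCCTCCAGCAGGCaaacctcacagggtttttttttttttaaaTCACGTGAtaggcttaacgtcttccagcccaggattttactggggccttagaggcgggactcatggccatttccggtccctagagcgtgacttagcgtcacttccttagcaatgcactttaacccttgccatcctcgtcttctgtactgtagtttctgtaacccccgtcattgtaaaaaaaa
Tfe3: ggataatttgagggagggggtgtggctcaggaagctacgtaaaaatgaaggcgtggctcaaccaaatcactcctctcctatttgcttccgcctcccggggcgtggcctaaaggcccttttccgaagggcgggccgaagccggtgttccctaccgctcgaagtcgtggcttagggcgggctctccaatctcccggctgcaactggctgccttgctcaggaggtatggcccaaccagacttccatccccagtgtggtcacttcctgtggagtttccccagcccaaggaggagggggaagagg
Tfeb: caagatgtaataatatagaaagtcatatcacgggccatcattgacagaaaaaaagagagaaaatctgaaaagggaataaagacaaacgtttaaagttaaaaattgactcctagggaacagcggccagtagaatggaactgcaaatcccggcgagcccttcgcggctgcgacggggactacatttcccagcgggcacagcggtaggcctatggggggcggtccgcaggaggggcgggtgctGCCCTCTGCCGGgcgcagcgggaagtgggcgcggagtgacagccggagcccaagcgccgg
Atp6v1d: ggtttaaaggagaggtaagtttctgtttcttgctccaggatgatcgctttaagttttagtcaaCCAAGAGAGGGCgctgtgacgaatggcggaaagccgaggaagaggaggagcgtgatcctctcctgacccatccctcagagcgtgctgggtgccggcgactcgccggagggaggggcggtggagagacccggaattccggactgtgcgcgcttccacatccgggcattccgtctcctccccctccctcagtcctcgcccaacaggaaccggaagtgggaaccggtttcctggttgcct

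All 13 measured subunits of V0 and V1 had positive log2 changes (12 of 13 with centred arrays, where Atp6v1f had -0.005), with a median of 0.165 (1.12-fold), against a median of 0.00 over all genes. For 11 of the 13, both Ctcfl arrays read above both control arrays, and for the other 2, Atp6v1f and Atp6v1g1, the groups overlapped. None of the 13 passed the adjusted threshold and 3 had an unadjusted p under 0.05. Of the 29 sensing and signalling members, 14 had positive and 15 negative log2 changes, and the difference between them and the pump subunits was not tested. Of all genes, 20.6% had both Ctcfl arrays above both control arrays, 20.6% had both below, and 41.1% did not overlap in either direction. Without the dimmest 1 in 3 genes, 22.7% had both above. All 13 pump subunits had a mean value above the upper quartile of genes, and no share was taken over genes of like brightness. No member passed the adjusted threshold of 0.05 by limma over all genes (0 of 44), where 0.0451% of all genes did. At an unadjusted p under 0.05 there were 7 members (5 higher, 2 lower), where 10.7% of all genes did so (5.36% higher, 5.32% lower). These 7 were Atp6v1a, Atp6v1d, Atp6v1h, Tsc2, Tfeb, Tfe3 and Mitf. With 1 array left out, 9 members had such a p without Ctcfl replicate 1 (8.34% of all genes), and 3 without Ctcfl replicate 2 (7.03%), without control replicate 1 (6.71%) or without control replicate 2 (6.67%). Leaving out 1 array moved the log2 change of 31 of the 44 members by over 1.5 times or turned its sign. When each array was centred on its median, the split was 2 higher and 3 lower, with Nprl3 in and Atp6v1d, Atp6v1h and Tsc2 out, where 3.89% of all genes were higher and 6.38% lower. That centring moved the median of all genes by -0.02 and the pump median to 0.145.

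**Figure D1:**
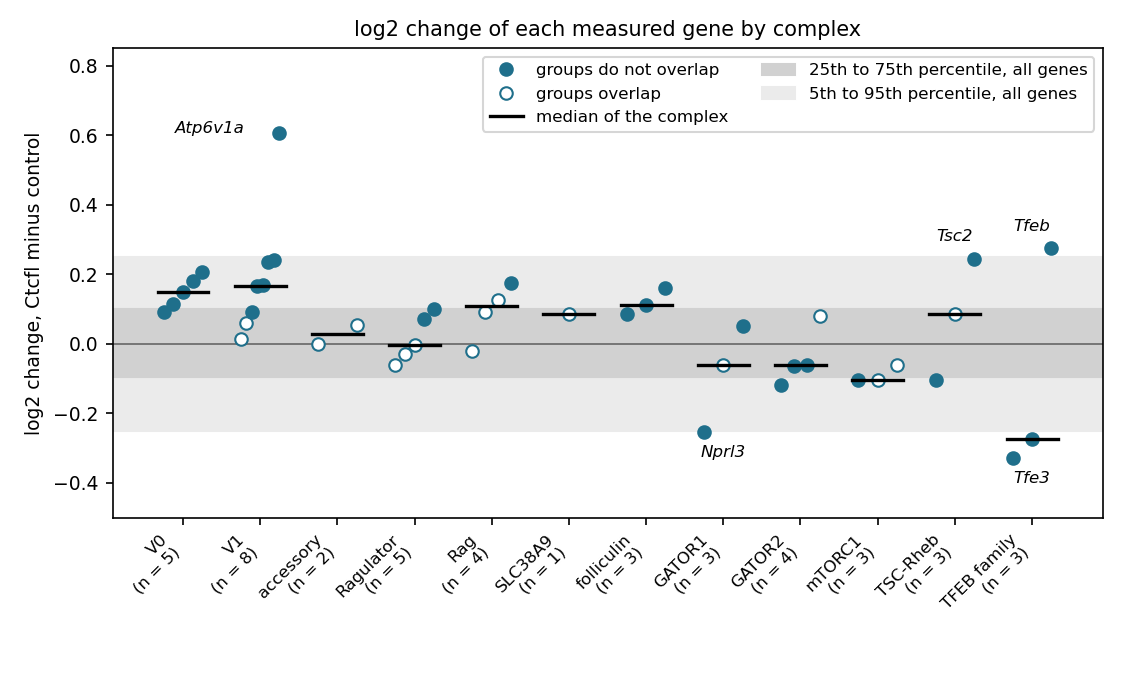
Each point is the log2 change (Ctcfl minus control, vertical axis) of 1 measured gene, grouped by complex along the horizontal axis. Filled points are genes whose 2 Ctcfl and 2 control arrays do not overlap, black bars are medians, and the bands run from the 25th to the 75th (-0.095 to 0.10) and from the 5th to the 95th percentile (-0.25 to 0.25) of all genes. The V0 and V1 points lie above 0, and Atp6v1a stands at 0.605.

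The catalytic V1 sector held the largest difference of all 44 members. Atp6v1a encodes subunit A, which carries the catalytic sites for ATP. It read 10.74 and 10.79 on the Ctcfl arrays, against 10.13 and 10.19 on the control arrays. The groups did not overlap, with a gap of 0.55 between them. The log2 change was 0.605 (SE 0.08, 95% interval 0.40 to 0.81, 1.52-fold), with an adjusted p of 0.147 by limma, so it missed the threshold. Only 38 of the 19938 genes had a larger positive log2 change. The gene ranked 43 by p over all genes. Under an intensity trend with robust variances, where 2.40% of all genes passed, its adjusted p was 7.79e-06. Leaving out any array gave log2 changes between 0.575 and 0.635, with adjusted p-values of 0.539 to 0.649, and over all alternatives the adjusted p ran from 7.79e-06 to 0.651.

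Subunit D, encoded by Atp6v1d, forms part of the central stalk that rotates. It read 10.19 and 10.21 on the Ctcfl arrays, against 9.97 and 9.95 on the control arrays. The groups lay 0.22 apart, and the log2 change was 0.24 (SE 0.08, unadjusted p = 0.0254, adjusted p = 0.417). It passed only under the intensity trend with robust variances (adjusted p = 0.0311). Subunit H, encoded by Atp6v1h, links V1 to V0 and governs ATP hydrolysis. It read 9.96 and 10.09 on the Ctcfl arrays, against 9.80 and 9.78 on the control arrays, a log2 change of 0.235 (SE 0.09, unadjusted p = 0.0384, adjusted p = 0.442). Here too the groups did not overlap, with a gap of 0.16.

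The remaining V1 genes had smaller differences. Atp6v1c1, whose product clamps V1 onto V0, had a log2 change of 0.17, and Atp6v1e1, for a peripheral stalk subunit, had 0.165. Atp6v1b2, the B subunit that pairs with A in the catalytic ring, had 0.09, with a gap of 0.03 between the groups. Each of these 3 genes had both Ctcfl arrays above both control arrays, as 20.6% of all genes did. For Atp6v1g1, another peripheral stalk gene, the log2 change was 0.06, and the lower Ctcfl array equalled the higher control array at 10.69. Atp6v1f, for a small rotor subunit, had overlapping groups. Its log2 change of 0.015 became -0.005 with median centring and -0.0075 as the mean of its 2 probe sets. The 8 V1 genes thus spanned 0.015 to 0.605 with a median of 0.1675.

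In the membrane sector V0, 5 of the 6 subunits listed were measured. For all 5 both Ctcfl arrays read above both control arrays, where 20.6% of all genes did so. Atp6v0d1 encodes subunit d, which sits between the proteolipid ring and the stalk. It read 9.72 and 9.71 on the Ctcfl arrays, against 9.55 and 9.47 on the control arrays (log2 change 0.205, SE 0.08, unadjusted p = 0.0506, adjusted p = 0.468). Atp6v0e, a small membrane subunit, read 9.23 and 9.22 on the Ctcfl arrays, against 9.04 and 9.05 on the control arrays. The groups lay 0.17 apart, and the log2 change was 0.18 (SE 0.08, adjusted p = 0.495). Atp6v0b, a ring subunit, read 11.44 and 11.41 on the Ctcfl arrays, against 11.30 and 11.25 on the control arrays, a log2 change of 0.15 (SE 0.08, adjusted p = 0.560). The a subunits hold the proton channel and set where the pump resides. Atp6v0a1 had a log2 change of 0.115 and Atp6v0a2 had 0.09, and a dimmer second probe set of Atp6v0a2 gave 0.20. The 5 genes spanned 0.09 to 0.205, with a median of 0.15, and that median was 0.13 when arrays were centred.

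The genes of the accessory proteins had log2 changes below the V0 and V1 median, of a size like those of Atp6v1f (0.015) and Atp6v1g1 (0.06). Atp6ap1, which helps assemble V0, read 11.00 and 10.94 on the Ctcfl arrays, against 10.97 and 10.97 on the control arrays, a log2 change of 0.00 (SE 0.08, 95% interval -0.20 to 0.20). Atp6ap2, the prorenin receptor, read 9.80 and 9.93 on the Ctcfl arrays, against 9.77 and 9.85 on the control arrays, a log2 change of 0.055 (SE 0.09). Both genes had overlapping groups. Their intervals also cover the 0.165 of the V0 and V1 median, and the difference between them and the sectors was not tested.

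**Figure D2:**
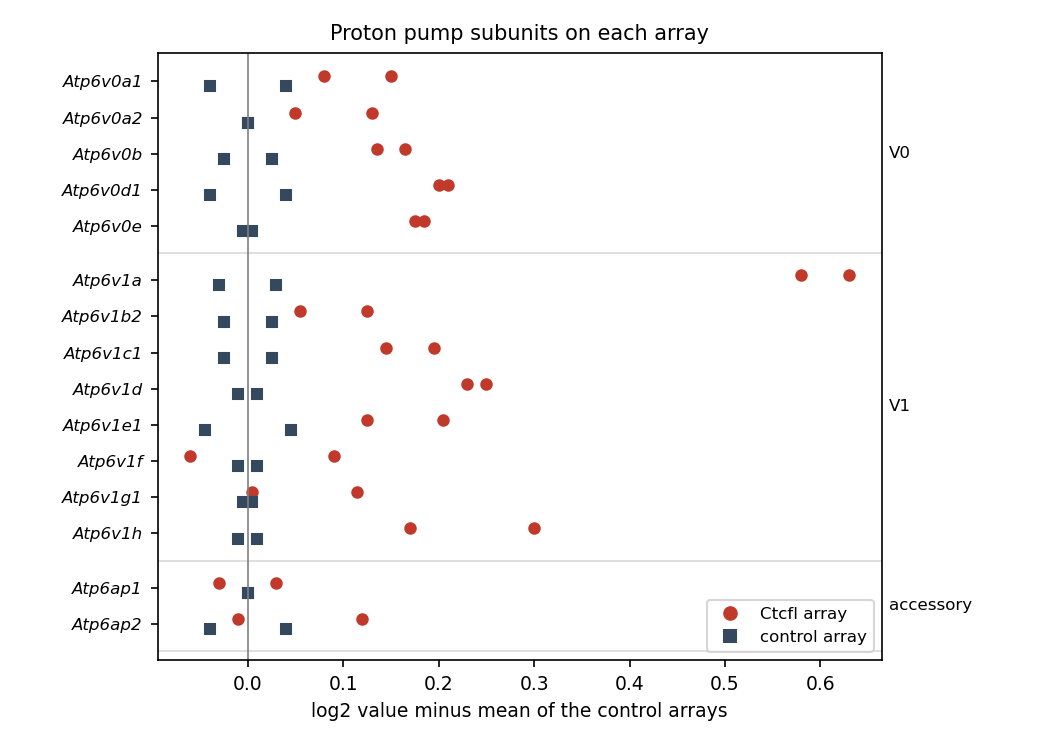
Log2 value of each proton pump gene on each array (horizontal axis), minus the mean of its 2 control arrays, with genes listed down the page by sector. Circles are the 2 Ctcfl arrays and squares the 2 control arrays, and the circles of Atp6v1a lie farthest to the right.

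Other isoforms of the pump, most of them restricted to tissues such as kidney or bone, gave a mixed picture. Of 9 measured, 7 had positive log2 changes and none passed the adjusted threshold. Both Ctcfl arrays read above both control arrays for 3, where 20.6% of all genes did so. Atp6v0e2, an isoform of the small e subunit, read 6.43 and 6.61 on the Ctcfl arrays, against 6.06 and 6.03 on the control arrays. Its log2 change was 0.475 (SE 0.10, unadjusted p = 0.00242, adjusted p = 0.258), larger than that of every V0 member. Atp6v1g3 had 0.195 and Atp6v1g2 had 0.18, with overlapping groups for Atp6v1g2. Among 9 assembly factors and regulators of pump assembly, 3 had positive and 5 negative log2 changes, with a median of -0.03. Dmxl1, Wdr7 and Dmxl2, which belong to the rabconnectin machinery that joins V1 to V0, had 0.205, 0.21 and -0.175. None of the 9 passed.

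Ragulator, the scaffold that anchors the Rag GTPases to lysosomes, had log2 changes from -0.06 to 0.10 in its 5 genes, with a median of -0.005. Lamtor3 read 9.93 and 10.09 on the Ctcfl arrays, against 9.92 and 9.90 on the control arrays (log2 change 0.10, SE 0.09, adjusted p = 0.735). The groups were only 0.01 apart, and a second probe set gave 0.125. Lamtor1, the lipidated subunit that tethers the complex to the membrane, read 8.08 and 8.04 on the Ctcfl arrays, against 8.02 and 7.96 on the control arrays. Its log2 change was 0.07, but a dimmer probe set gave -0.09 with overlapping groups. Lamtor2 read 6.69 and 6.86 on the Ctcfl arrays, against 6.83 and 6.84 on the control arrays. It had -0.06, Lamtor4 had -0.03 and Lamtor5 had -0.005, all with overlapping groups. The median of Ragulator was 0.085 without control replicate 1 and -0.055 without control replicate 2.

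The Rag GTPases work as pairs of RagA or RagB with RagC or RagD. Rragc, for RagC, read 10.11 and 10.33 on the Ctcfl arrays, against 10.14 and 10.05 on the control arrays (log2 change 0.125, SE 0.11, adjusted p = 0.705). Its log2 change was 0.235 without Ctcfl replicate 1 and 0.015 without Ctcfl replicate 2. Rraga, for RagA, had a log2 change of -0.02, and the groups overlapped for both genes. Rragb and Rragd had low values, and without detection calls such levels have no known distance from background. Rragb read 3.54 and 3.46 on the Ctcfl arrays, against 3.25 and 3.40 on the control arrays, a log2 change of 0.175 (SE 0.09). Rragd read 4.10 and 4.12 on the Ctcfl arrays, against 3.80 and 4.24 on the control arrays, so that the control arrays lay on either side of the Ctcfl arrays. The median of the 4 Rag genes was 0.1075, and it was 0.0475 without Ctcfl replicate 2, 0.165 without control replicate 2 and 0.0525 without the dimmest 1 in 3 genes, which left 2 of them.

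Slc38a9 encodes a lysosomal transporter that reports arginine to the Rag GTPases. Its brighter probe set read 5.99 and 5.88 on the Ctcfl arrays, against 5.90 and 5.80 on the control arrays, a log2 change of 0.085 (SE 0.09) with overlapping groups. Its dimmer probe set read 5.37 and 5.17 on the Ctcfl arrays, against 4.76 and 4.85 on the control arrays. That was a log2 change of 0.465 (SE 0.11, unadjusted p = 0.0115, adjusted p = 0.611 in a limma fit over all probe sets), and the mean of both gave 0.275. Lamtor1, Atp6v1f and Slc38a9 were the genes, of 7 members with 2 probe sets, where the probe sets differed in sign or in whether the groups overlapped.

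All 3 genes of the folliculin complex had both Ctcfl arrays above both control arrays, by little. Over all genes 20.6% lay above in this way. Flcn encodes folliculin, the activator of GTP hydrolysis by RagC and RagD. It read 8.82 and 8.72 on the Ctcfl arrays, against 8.68 and 8.69 on the control arrays (log2 change 0.085, SE 0.09, adjusted p = 0.761). Its partner Fnip1 read 9.90 and 9.77 on the Ctcfl arrays, against 9.68 and 9.67 on the control arrays (0.16, SE 0.09, adjusted p = 0.563). Fnip2 read 8.32 and 8.33 on the Ctcfl arrays, against 8.30 and 8.13 on the control arrays (0.11, SE 0.09, adjusted p = 0.714). The gaps between the groups were 0.03, 0.09 and 0.02, and the complex had a median of 0.11.

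In the GATOR complexes, 5 of 7 genes had negative log2 changes. GATOR1 is the brake that stimulates GTP hydrolysis by RagA and RagB. Its subunit gene Nprl3 read 7.24 and 7.0 on the Ctcfl arrays, against 7.34 and 7.41 on the control arrays, a log2 change of -0.255 (SE 0.11, unadjusted p = 0.0550, adjusted p = 0.474). It was -0.375 without Ctcfl replicate 1 and -0.135 without Ctcfl replicate 2. The other two subunits had small values. Nprl2 read 6.52 and 6.45 on the Ctcfl arrays, against 6.48 and 6.61 on the control arrays (-0.06). Depdc5 read 7.46 and 7.42 on the Ctcfl arrays, against 7.38 and 7.40 on the control arrays (0.05). The subunits of GATOR1 thus stood on different sides of 0, with Nprl3 wholly below and Depdc5 wholly above the control arrays. The gaps were 0.1 for Nprl3 and 0.02 for Depdc5, and groups did not overlap in 41.1% of all genes.

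GATOR2 opposes GATOR1, and 3 of its 4 genes had both Ctcfl arrays below both control arrays, each by a gap of 0.01. Over all genes 20.6% lay below in this way. Wdr24 read 6.77 and 6.59 on the Ctcfl arrays, against 6.82 and 6.78 on the control arrays (-0.12, SE 0.10, adjusted p = 0.689), and its log2 change was -0.21 without Ctcfl replicate 1 and -0.03 without Ctcfl replicate 2. Mios read 7.54 and 7.60 on the Ctcfl arrays, against 7.66 and 7.61 on the control arrays (-0.065), and Seh1l, shared with the nuclear pore, had -0.06. Wdr59 read 7.51 and 7.40 on the Ctcfl arrays, against 7.41 and 7.34 on the control arrays, a log2 change of 0.08 with overlapping groups. A gap of 0.01 is the last decimal of the deposited values. Upstream of GATOR, 10 measured sensor and anchor genes had a median of 0.045 and none passed. Sesn3, a sestrin, had 0.38 (SE 0.11, unadjusted p = 0.0112, adjusted p = 0.354), while Sesn2, the leucine sensor that binds GATOR2, had -0.205 and the leucyl-tRNA synthetase gene Lars had -0.14.

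The core of mTORC1 had negative log2 changes in its 3 genes and none passed the threshold. Mtor, the kinase, read 7.64 and 7.59 on the Ctcfl arrays, against 7.70 and 7.74 on the control arrays (-0.105, SE 0.08, adjusted p = 0.685). Rptor, for the Raptor subunit that docks on the Rag GTPases, read 7.69 and 7.63 on the Ctcfl arrays, against 7.68 and 7.85 on the control arrays (-0.105, SE 0.10). Mlst8 read 7.96 and 7.63 on the Ctcfl arrays, against 7.89 and 7.82 on the control arrays (-0.06, SE 0.13). The groups overlapped for Rptor and Mlst8 and were 0.06 apart for Mtor.

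The TSC complex turns off Rheb, the GTPase that activates mTORC1. Tsc2, its catalytic subunit, read 8.46 and 8.62 on the Ctcfl arrays, against 8.25 and 8.34 on the control arrays (log2 change 0.245, SE 0.10, unadjusted p = 0.0433, adjusted p = 0.454). Its partner Tsc1 read 8.01 and 7.96 on the Ctcfl arrays, against 8.08 and 8.10 on the control arrays (-0.105, SE 0.08, adjusted p = 0.683). The 2 subunits of the complex thus stood on opposite sides of their controls, each without overlap, as in 41.1% of all genes. The gaps between the groups were 0.12 for Tsc2 and 0.07 for Tsc1. Rheb read 8.26 and 8.75 on the Ctcfl arrays, against 8.39 and 8.45 on the control arrays. Its Ctcfl arrays were 1 below and 1 above the controls, and its log2 change of 0.085 was 0.33 without Ctcfl replicate 1 and -0.16 without Ctcfl replicate 2. The median of these 3 genes followed it, at 0.325 without Ctcfl replicate 1 and -0.08 without Ctcfl replicate 2.

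Other genes around mTOR gave single differences of similar or larger size, and none passed the adjusted threshold. Of 11 regulators and further subunits, 6 had positive and 5 negative log2 changes, with a median of 0.03. Rhebl1, a close relative of Rheb, read 5.89 and 5.93 on the Ctcfl arrays, against 5.35 and 5.18 on the control arrays. Its log2 change of 0.645 (SE 0.10, unadjusted p = 4.43e-04, adjusted p = 0.152) was larger than that of any of the 44 members. Prr5, a subunit of mTORC2, had 0.37 (unadjusted p = 0.00516), and Akt1s1, for the mTORC1 inhibitor PRAS40, had -0.31 (unadjusted p = 0.0488). Of 11 substrates and effectors of mTORC1, 7 had both Ctcfl arrays below and 3 both above the controls. Over all genes 20.6% lay below and 20.6% above in this way. The gaps ran from 0.01 to 0.11 for the 7 and from 0.04 to 0.23 for the 3. The median of the 11 was -0.085. Atg13, an autophagy factor, had 0.32 (unadjusted p = 0.0110), the translation inhibitor Pdcd4 had 0.245 and the S6 kinase gene Rps6kb2 had 0.19.

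**Figure D3:**
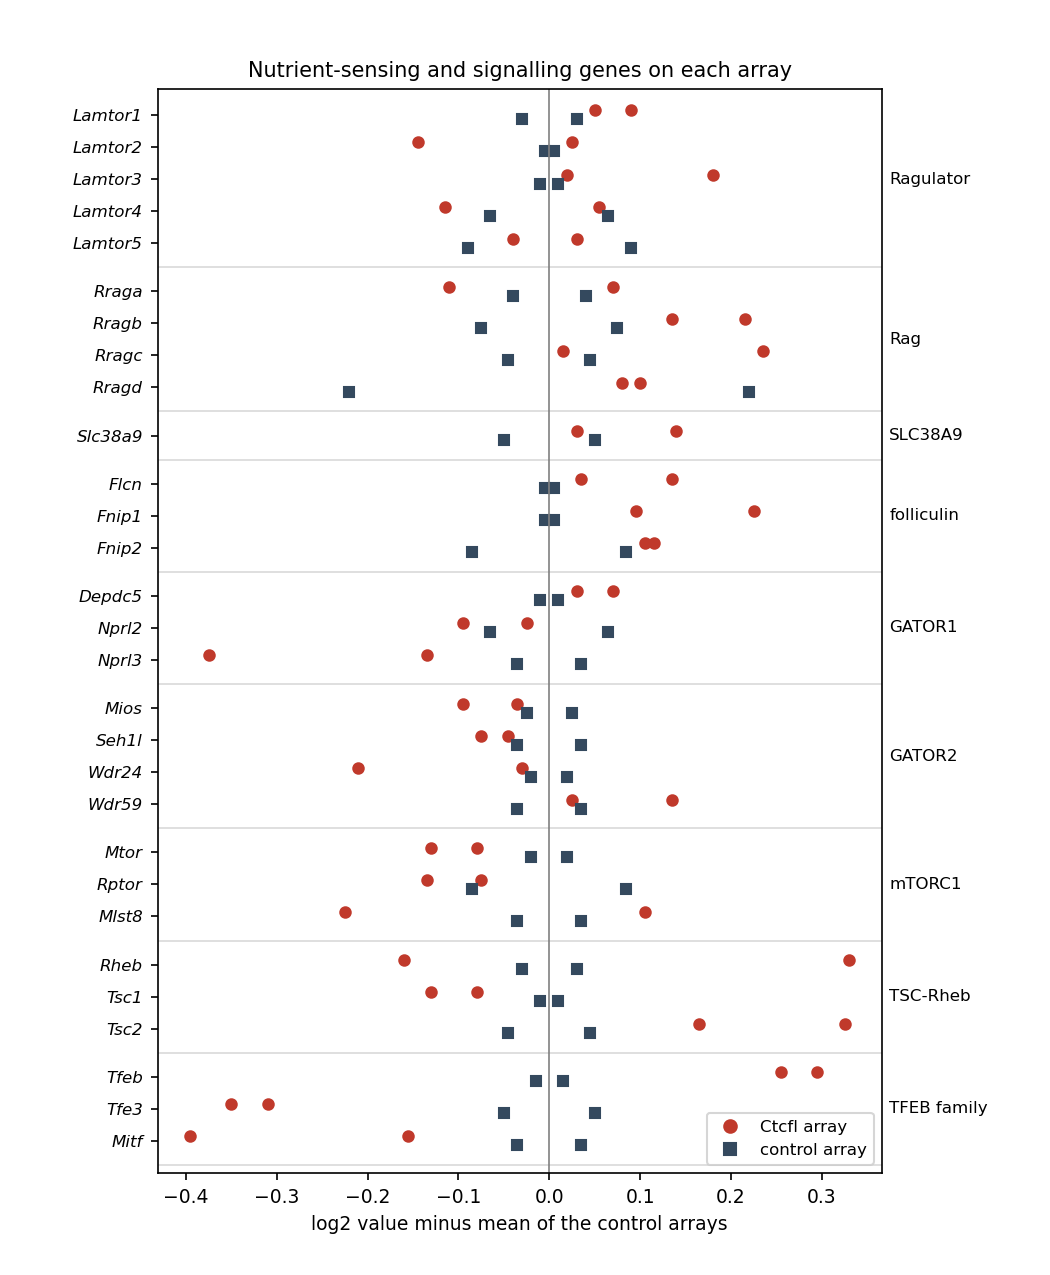
Log2 value of each nutrient-sensing and signalling gene on each array (horizontal axis), minus the mean of its 2 control arrays, with genes listed down the page by complex. Circles are the 2 Ctcfl arrays and squares the 2 control arrays, and Tfeb, Tfe3, Mitf, Tsc2 and Nprl3 show the groups farthest apart.

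The 3 genes of the TFEB family had differences in opposite directions, and in each the groups did not overlap, as in 41.1% of all genes. Tfe3, which is active in most tissues, read 7.75 and 7.71 on the Ctcfl arrays, against 8.01 and 8.11 on the control arrays. Its log2 change was -0.33 (SE 0.09, 95% interval -0.54 to -0.12, unadjusted p = 0.00854, adjusted p = 0.342), which is 1.26-fold lower. Tfeb, the factor for which the CLEAR network is best known, read 6.04 and 6.08 on the Ctcfl arrays, against 5.80 and 5.77 on the control arrays. Its log2 change was 0.275 (SE 0.08, 95% interval 0.07 to 0.48, unadjusted p = 0.0152, adjusted p = 0.382), which is 1.21-fold. Mitf, the melanocyte and osteoclast member of the family, read 5.38 and 5.14 on the Ctcfl arrays, against 5.50 and 5.57 on the control arrays. Its log2 change was -0.275 (SE 0.11, unadjusted p = 0.0426, adjusted p = 0.452), and a second, dim probe set read 2.65 and 2.68 on the Ctcfl arrays, against 2.85 and 2.78 on the control arrays. Without Ctcfl replicate 2 the change of Mitf was -0.155. Tfe3 passed only under the intensity trend with robust variances (adjusted p = 0.0314). Leaving out 1 array gave log2 changes of -0.38 to -0.28 for Tfe3, 0.255 to 0.295 for Tfeb and -0.395 to -0.155 for Mitf.

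**Figure D4:**
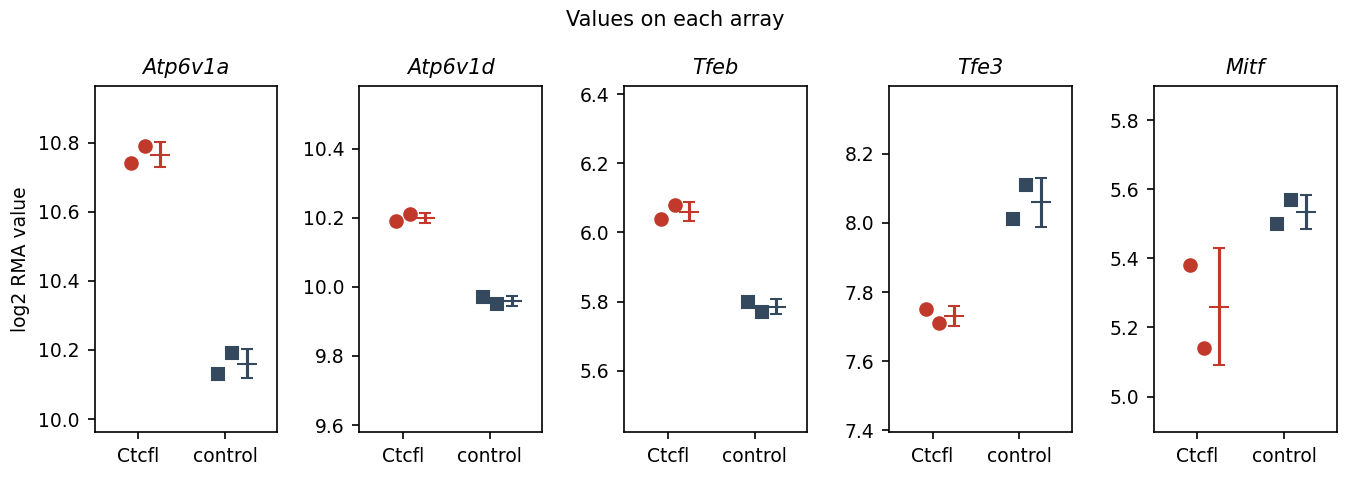
Log2 RMA values (vertical axis, spanning 1 unit in each panel) of 5 members on the 2 Ctcfl arrays (circles, left) and the 2 control arrays (squares, right), with the mean and SD of each group beside them. Atp6v1a, Atp6v1d and Tfeb are higher and Tfe3 and Mitf lower on the Ctcfl arrays, with no overlap between groups.

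Genes that TFEB and its relatives are known to bind were measured beside their regulators. Of 21 measured CLEAR network genes, 14 had positive log2 changes. Both Ctcfl arrays lay above the controls for 11 and below for 3, where 20.6% of all genes lay above and 20.6% below. The median of the 21 was 0.065. None passed the adjusted threshold. Neu1, a lysosomal sialidase, read 8.16 and 8.20 on the Ctcfl arrays, against 7.73 and 7.71 on the control arrays (0.46, SE 0.08, unadjusted p = 0.00127, adjusted p = 0.210). Ppargc1a, a coactivator of mitochondrial genes, read 7.25 and 7.24 on the Ctcfl arrays, against 7.67 and 7.74 on the control arrays (-0.46, SE 0.08, unadjusted p = 0.00139, adjusted p = 0.214). Naglu, a lysosomal enzyme that degrades heparan sulfate, had -0.305. These members of 1 list thus had differences of like size in opposite directions. Among 13 lysosomal transporters and channels the median was -0.035. Ostm1, the partner of a lysosomal chloride exchanger, had 0.405 (unadjusted p = 0.00315, adjusted p = 0.266). Slc36a1, a proton-coupled amino acid transporter, had 0.34, and Slc7a5, a plasma membrane carrier of leucine, had -0.23.

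The promoters of the members were read for 3 sets of letters on both strands. These were the E-box CACGTG, the longer CLEAR letters TCACGTGA, which contain it, and the CTCF core spelled out above. The table held promoters for 27025 genes, 37 of the 45 members and 9 of the 14 V0 and V1 subunits. CLEAR letters stood in the promoters of 3 of those 9 subunits (33.3%), against 1.12% of all genes in the table, and in none of the other 28 members. The E-box stood in 4 of the 9 (44.4%) and in 6 of the other 28 (21.4%), against 8.09% of all genes. Pump subunits are among the genes already known for CLEAR elements, so their shares are no independent result. Of 20 CLEAR network genes with a promoter, 4 held the CLEAR letters. The stretches around the E-box of the 4 pump subunits are shown to compare their flanks, and they were chosen after the matches were seen. The E-box is in capitals, with the outer letters of the CLEAR element where present. They lie at chr4:117887330-117887377 on the minus strand for Atp6v0b, chr8:105566040-105566079 on the minus strand for Atp6v0d1, chr17:26676387-26676426 on the plus strand for Atp6v0e and chr16:44139363-44139402 on the minus strand for Atp6v1a.
Atp6v0b: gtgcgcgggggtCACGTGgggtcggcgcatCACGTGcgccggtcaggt
Atp6v0d1: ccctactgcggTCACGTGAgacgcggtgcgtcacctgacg
Atp6v0e: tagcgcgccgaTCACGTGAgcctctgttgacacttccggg
Atp6v1a: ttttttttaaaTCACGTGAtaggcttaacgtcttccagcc

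With the start site counted as position 0, the CLEAR letters of Atp6v0d1 began at position -4 and those of Atp6v0e at position 2, while those of Atp6v1a began at position -132. Atp6v0b held 2 E-boxes, at positions -36 and -18, and neither was flanked as in the CLEAR element. The log2 changes of these 4 genes, 0.15, 0.205, 0.18 and 0.605, stood beside 0.115, 0.24, 0.165 and 0.015 for Atp6v0a1, Atp6v1d, Atp6v1e1 and Atp6v1f, whose promoters held no E-box. The CTCF core stood in 5 of the 37 members (13.5%), against 9.84% of all genes. Those 5 were Atp6v1a, Atp6v1d, Mios, Tfeb and Mitf, with the core at position -173 in Atp6v1a and position -187 in Atp6v1d. Such matches describe letters in these windows, and whether any factor binds there was not measured.

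**Figure D5:**
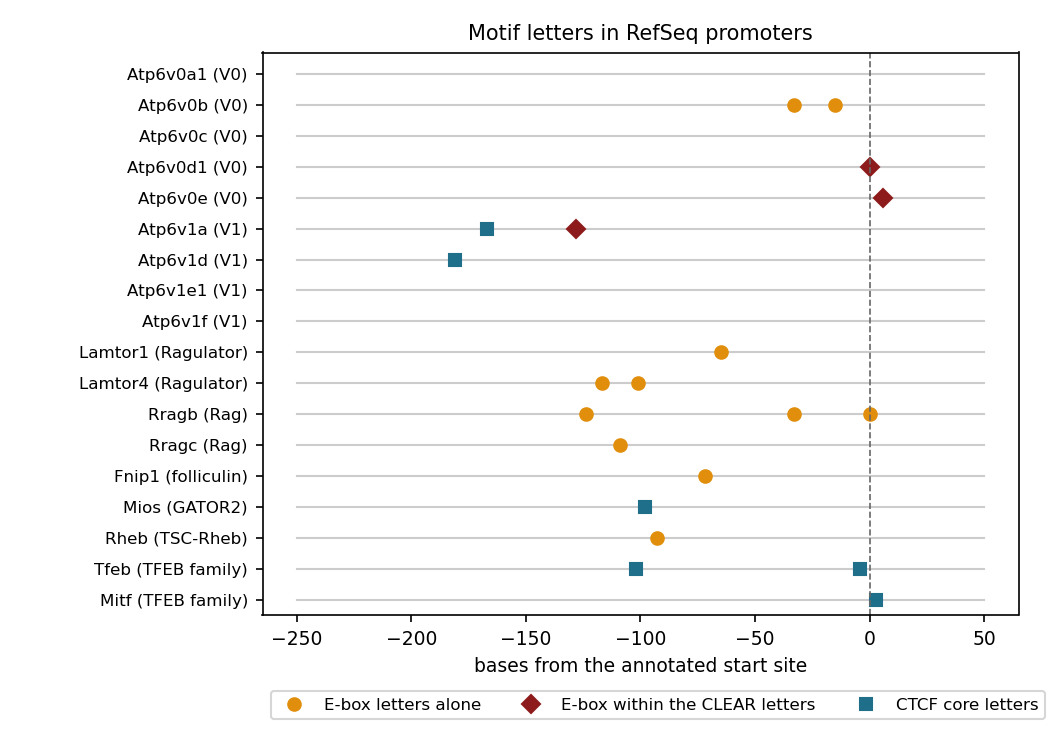
Positions of the centres of the motif letters (horizontal axis, bases from the annotated start site) in the promoters of the pump subunits and of the other members that hold any, with genes listed down the page. Diamonds mark E-boxes within the CLEAR letters, circles other E-boxes and squares the CTCF core, and several start sites of Tfeb and Mitf are drawn on 1 line.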

How the data were processed

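Gene expression was measured on 4 Affymetrix arrays, 2 per group. The authors made the deposited log2 values by RMA in the Expression Console software, per the labels, and the software version is not given in the sources used here. RMA corrects background, equalises the array distributions and summarises probes, which can shrink small differences. Of 35511 probe sets with values, the platform annotation gave 1 gene symbol for 21789, several for 1621 and did not list 12101, and 21698 were matched by gene identifier to the RefSeq table of GRCm38.p6. Where a gene had several probe sets (999 genes, 7 members), the brightest stood for it. No dim gene was left out.

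The groups were tested with limma 3.58.1 under R 4.3.3 (lmFit and eBayes, two-sided, 4.21 prior degrees of freedom), and p-values were adjusted by Benjamini-Hochberg over the 19938 genes, with 0.05 as threshold. The number of arrays limits the precision. Groups did not overlap where both arrays of 1 group lay above both of the other. Alternatives were a second quantile normalisation, median centring, omission of the dimmest 1 in 3 genes, averaged probe sets, a variance trend on intensity with robust fitting (statmod 1.5.0), the replicate number as a block, omission of each array, ordinary t statistics without moderation, and a fit on all probe sets. The fit was tested on simulated data of 2 against 2 arrays. At the adjusted threshold it called 5.3% of simulated log2 changes of 0.5 and 87.2% of those of 1. In each complex, up to 3 members with the smallest unadjusted p are given with all array values, and up to 3 such genes are named from each other list. Promoters follow the same order of p. The members, lists and rules were chosen with earlier results of these data known.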

Additional observations from a re-analysis of the deposited data

How the results depend on the processing

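Of 526 comparisons of a member's log2 change with an alternative, 506 kept their side of the threshold without a reversal of sign. In several alternatives, given below, no gene at all passed. Staying below the threshold was the only possible outcome there, so this count is no measure of robustness. Another 3 passed the threshold under the intensity trend with robust variances (Atp6v1a 0.605, Atp6v1d 0.24, Tfe3 -0.33) and 17 changed sign. Atp6ap1, with a log2 change of 0.00, had no sign to reverse, and leaving out 1 array gave it -0.03 to 0.03. The sign changes fell in 11 members, none with a log2 change above 0.09 in size. Atp6v1f had -0.005 with median centring and -0.0075 as the mean of its probe sets, Lamtor1 had -0.01 as the mean of its probe sets, and Lamtor5 had 0.0125 after another quantile normalisation. Leaving out 1 array gave ranges of -0.06 to 0.09 for Atp6v1f, -0.01 to 0.12 for Atp6ap2, -0.145 to 0.025 for Lamtor2, -0.115 to 0.055 for Lamtor4, -0.095 to 0.085 for Lamtor5, -0.11 to 0.07 for Rraga, -0.13 to 0.31 for Rragd, -0.125 to 0.005 for Nprl2, -0.225 to 0.105 for Mlst8 and -0.16 to 0.33 for Rheb. The same ranges for medians were 0.145 to 0.175 for V0 and V1 together, 0.135 to 0.175 for V0, -0.055 to 0.085 for Ragulator, 0.0475 to 0.165 for the Rag genes, 0.09 to 0.165 for the folliculin complex, -0.08 to 0.325 for TSC and Rheb and -0.35 to -0.155 for the TFEB family. The median of V0 was 0.13 with centred arrays, that of the Rag genes 0.0525 without the dimmest 1 in 3 genes, and Slc38a9 had 0.275 as the mean of its probe sets. The cause of these shifts was not tested.

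The number of all genes past the threshold was 9. It was 31 (16 higher, 15 lower) with centred arrays, 20 without the dimmest 1 in 3 genes and 479 with the intensity trend and robust variances. It was 0 with ordinary t statistics (1940 genes at an unadjusted p under 0.05), 0 in the limma fit over all probe sets (2764 probe sets) and 0 with any 1 array left out (1329 to 1663 genes), against 2129 genes. With centred arrays, 37.9% of all genes at an unadjusted p under 0.05 were higher, against 50.2% without centring. Of the members, 3 passed with the trend and 0 in every other alternative; 13 had an unadjusted p under 0.05 with the trend (13.5% of all genes), 4 in the fit over all probe sets (7.78% of probe sets) and 3 to 9 with 1 array left out (6.67% to 8.34% of all genes), against 7 (10.7%). With the replicate number as a block, 0 genes passed (1468 at an unadjusted p under 0.05), and 4 members had such a p, where 7.36% of all genes did. The labels give no basis for pairing arrays by number, and the deviations of same-numbered arrays correlated at -0.10. With the numbers crossed, an alternative chosen after seeing the data, 0 genes passed (2105 at an unadjusted p under 0.05). Without detection calls, values of dim genes such as Rragb and Rragd are limited by an unknown distance from background.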
